A study of Homo sapiens with 26 samples.

Results

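The genes for mitochondrial ribosomal proteins were taken as every symbol in the deposited count tables made of MRPL or MRPS, a number and at most a letter A, B or C. The rule found 77 genes of 26485. By textbook assignment, 50 encode proteins of the large subunit and 26 of the small subunit, with MRPS18A and MRPS30 counted in the large subunit, where they sit in spite of their names. MRPS36 is not a ribosomal protein: it is called KGD4 in RefSeq and belongs to the 2-oxoglutarate dehydrogenase complex. All 77 genes passed the filter on low counts in both tables. MRPL58 was not analysed here under that symbol.

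The mitochondrial ribosome makes the few proteins that mitochondrial DNA encodes, which are core subunits of the respiratory chain and of ATP synthase. Its RNA comes from mitochondrial DNA, and its proteins are nuclear-encoded, made in the cytosol and imported. Doxycycline, the drug that switches on the hairpins in these cells, is a tetracycline. Tetracyclines block bacterial ribosomes at the small subunit, and doxycycline also inhibits translation by the related mitochondrial ribosome. A doxycycline effect on these genes would be mixed with that of a hairpin, and the empty vector line was the group in which the drug could be read alone.

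The 26 libraries came from KELLY, an established human neuroblastoma cell line with amplified MYCN. In culture, 3 lines carried an inducible lentiviral vector: F1HUTG without a hairpin (EV), or with the hairpin sh4 or shAMB against RUNX1T1, a co-repressor gene. Each line was treated for 72 h with doxycycline or with its solvent DMSO, in 3 replicates. The other 8 libraries were KELLY tumors grown under the skin of female NOD SCID gamma mice. The labels called 4 of them control (genotype WT, control food) and 4 of them RUNX1T1 KO (doxycycline food). By the study's methods, hairpin-bearing cells had been engrafted, so "knock-out" is a label here and the food cannot be told apart from the hairpin. The paper states that shRNA1 was used in culture and in vivo, and that this construct was based on an Ambion sequence. If shAMB is that construct, shAMB and the xenografts share a hairpin. Mitochondrial DNA-encoded genes were not analysed here.

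RUNX1T1 RNA, the target of the hairpins, did not change past the test in any comparison as tested. It was 34.3 ± 0.898 CPM (counts after scaling every library to an equal total; SD, n = 3) with DMSO and 31.8 ± 1.94 with doxycycline in sh4, and 40.9 ± 1.04 against 42.5 ± 1.41 in shAMB (adjusted p = 0.117 and 0.378). In xenografts it was 35.5 ± 5.51 in controls and 30.2 ± 5.19 in the knock-out group (n = 4; adjusted p = 0.229). With the GC and length trends described below removed, it was lower in sh4 by 0.23 and in xenografts by 0.36 on the log2 scale (adjusted p = 2.3e-04 and 0.0103), and not called in shAMB (-0.07, 0.135). The groups are therefore named by their labels throughout, and each direction below rests on those labels. The paper measured the knock-down as protein. It reports less RUNX1T1 protein in doxycycline-treated KELLY cells with both of its hairpins, and loss of RUNX1T1 staining in KELLY xenografts taken early in treatment. These libraries hold RNA only, so the protein depletion was not tested here. MYCN RNA was higher in sh4 by 0.68, in shAMB by 1.57 and in xenografts by 1.46 on the log2 scale (adjusted p = 4.6e-06, 1.8e-10 and 3.1e-05). The 8 sympathetic neuroblastoma markers, MYCN, TH and DBH among them, summed to between 4100 and 10600 CPM in every library, and without MYCN to between 1426 and 3173 CPM. Summed endothelial (4 genes), leukocyte (4) and erythroid (3) markers stayed at or under 2.65 CPM, with HBB and HBA1 at 0 throughout. The 6 fibroblast markers summed to between 48.5 and 131 CPM. Reads were aligned to the human genome, so in xenografts these sums cannot measure cells of the mouse host, whose share was not tested. Libraries held 35115915 to 54736733 expected counts in culture and 47346063 to 62378060 in xenografts. In xenograft control replicate 2 the 77 genes took 0.313% of all counts, against 0.386% to 0.389% in the other 3 controls. The counts of members lower and higher without it are given with the xenograft results.

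The 77 genes were expressed throughout, with at least 59 counts per gene in any culture library. Per length, as CPM per kilobase of transcript averaged over the 6 culture groups, levels spanned 52.5-fold around a median of 38.1. MRPL51, a large-subunit protein without a bacterial counterpart, was highest at 290.5 CPM per kb. MRPL33 followed at 226.2, MRPL3 at 188.4, MRPL47 at 137.6 and MRPL32 at 122.5; all 4 are large-subunit proteins with bacterial counterparts. The lowest were MRPL23 at 6.11, MRPL17 at 5.55 and MRPL55 at 5.54 CPM per kb. The deposited TPM values put the same 5 genes first in the same order (Spearman rho over the 77 genes 0.994). MRPL51 ranged between 647.1 and 870.8 TPM over the 18 culture libraries and did not overlap MRPL3 (356.3 to 512.1), but MRPL51 and MRPL33 (620.6 to 869.7) overlapped. Likewise MRPL23, MRPL17 and MRPL55 overlapped each other. As a share of all counts the 77 genes took 0.502% ± 0.01 in EV with DMSO and 0.505% ± 0.001 with doxycycline (SD, n = 3). The share was 0.509% ± 0.007 and 0.492% ± 0.002 in sh4, and 0.505% ± 0.006 and 0.464% ± 0.013 in shAMB. In sh4 and in shAMB the doxycycline libraries lay below every DMSO library, while the EV libraries overlapped.

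With the empty vector, doxycycline changed none of the 77 genes past the test (edgeR quasi-likelihood, Benjamini-Hochberg adjusted p under 0.05 over all genes). Over all genes, 14 of 14905 passed, which is 0.0939%. The lowest adjusted p of a member was 0.672. At an unadjusted p under 0.05 there were 4 members (5.19%, beside 5.9% of all genes), and DESeq2 called 0, with 3 at that unadjusted level. The DMSO and doxycycline libraries did not overlap for 6 members (7.79%), beside 14.1% of all genes. The median member log2 fold change was 0.03, beside 0.01 over all genes.

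The interval of each difference bounded what went undetected. For 63 members the 95% interval lay inside a 1.5-fold change in either direction, and for 75 inside a 2-fold change; the median half-width was 0.15 on the log2 scale. The widest intervals belonged to low, GC-rich genes. MRPL55, the bL31-type protein of the large subunit, had the largest change at 0.41 (interval up to 1.19): 1.37, 2.83 and 3.60 CPM with DMSO against 3.58, 3.75 and 2.95 with doxycycline. MRPL23, which lies at the exit of the peptide tunnel, was at 0.41 as well, with 2.58, 3.53 and 4.73 CPM against 5.11, 4.88 and 4.32. MRPS26, a small-subunit protein without a bacterial counterpart, was at 0.36, with 14.6, 19.7 and 23.5 CPM against 25.8, 24.6 and 23.3. In each of these 3 genes the groups overlapped and DMSO replicate 1 was lowest. At the other end were MRPS33 (-0.13), MRPL13 (-0.10) and MRPL3 (-0.10). For MRPS33 the DMSO libraries held 69.6, 69.2 and 66.2 CPM and the doxycycline libraries 62.1, 62.9 and 61.8, so the groups did not overlap, yet the adjusted p was 0.672.

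**Figure D1:**
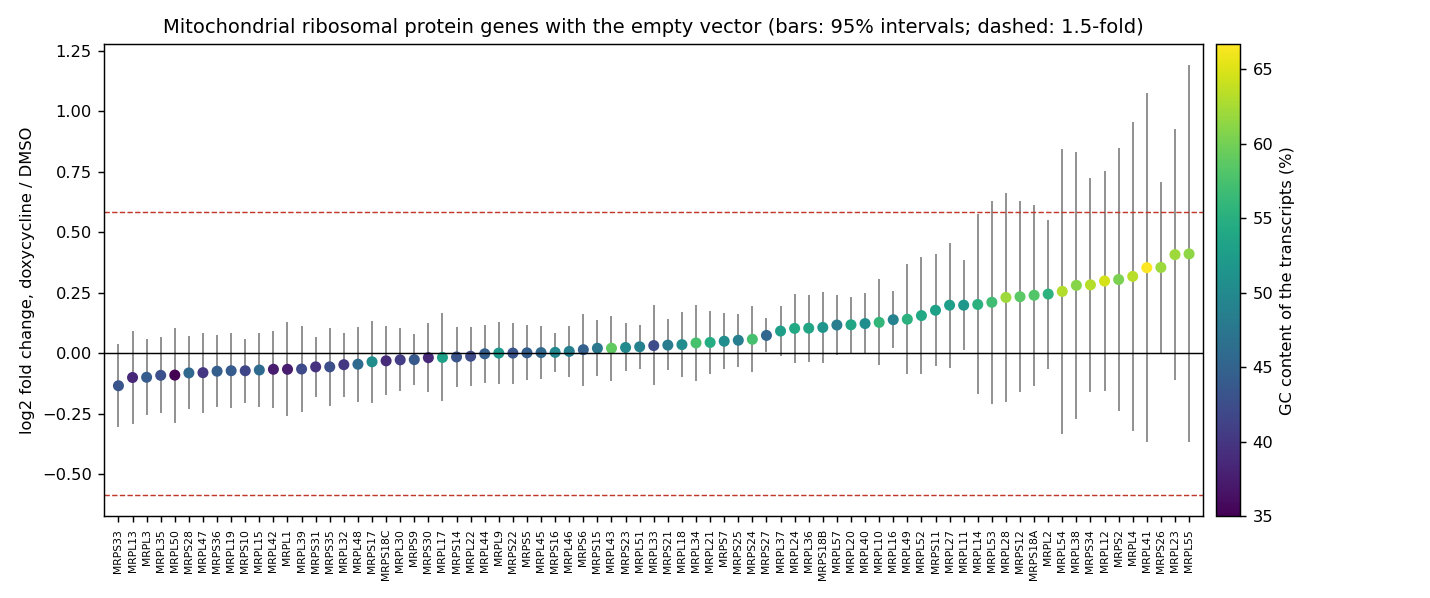
Log2 fold change of each of the 77 genes between doxycycline and DMSO in the empty vector line (vertical axis), sorted by size, with 95% intervals as bars and the GC content of the transcripts as color. Dashed lines mark a 1.5-fold change. None of the 77 genes passed the test, 63 intervals lie inside the dashed lines, and the rise from left to right follows GC content.

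The order of the members in EV followed base composition. GC content of the transcripts ran from 35% in MRPL50 to 66.7% in MRPL41. Across the 77 genes it correlated with the EV log2 fold change at Pearson r = 0.871 (0.43 over 14401 genes), as a description over genes that share the same 6 libraries. All 17 members with a GC content of at least 57% had a positive value (median 0.28), against 4 of the 26 members under 45% (median -0.06). Measured within a library, as the median log2 CPM of the 17 GC-rich members less that of the 26 GC-poor members, the EV DMSO libraries were at -2.20, -1.80 and -1.63 and the doxycycline libraries at -1.63, -1.62 and -1.72. These groups overlapped, and DMSO replicate 1 lay apart. Once smooth trends of expression on GC content and transcript length had been removed within each library, r over the members was 0.072, the median member change was 0.01 and 0 members were called in EV.

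GC content moved with the other comparisons as well, so most counts below are given with and without those trends, and their part was not otherwise tested. The correlation with GC content over the 77 genes was -0.616 in sh4, 0.466 in shAMB and -0.39 in xenografts, and after the trends were removed -0.053, -0.293 and -0.403. The within-library difference between GC-rich and GC-poor members was -1.204, -1.571 and -1.852 with DMSO and -1.93, -1.95 and -1.28 with doxycycline in sh4, so that sh4 doxycycline replicate 3 lay among its DMSO libraries. In shAMB it was -1.91, -2.21 and -1.89 against -2.17, -1.92 and -1.67. Xenograft controls were at -1.97, -1.37, -1.23 and -1.38 and the knock-out group at -1.71, -2.27, -1.98 and -2.30. In each of these 3 comparisons the groups overlapped.

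**Figure D2:**
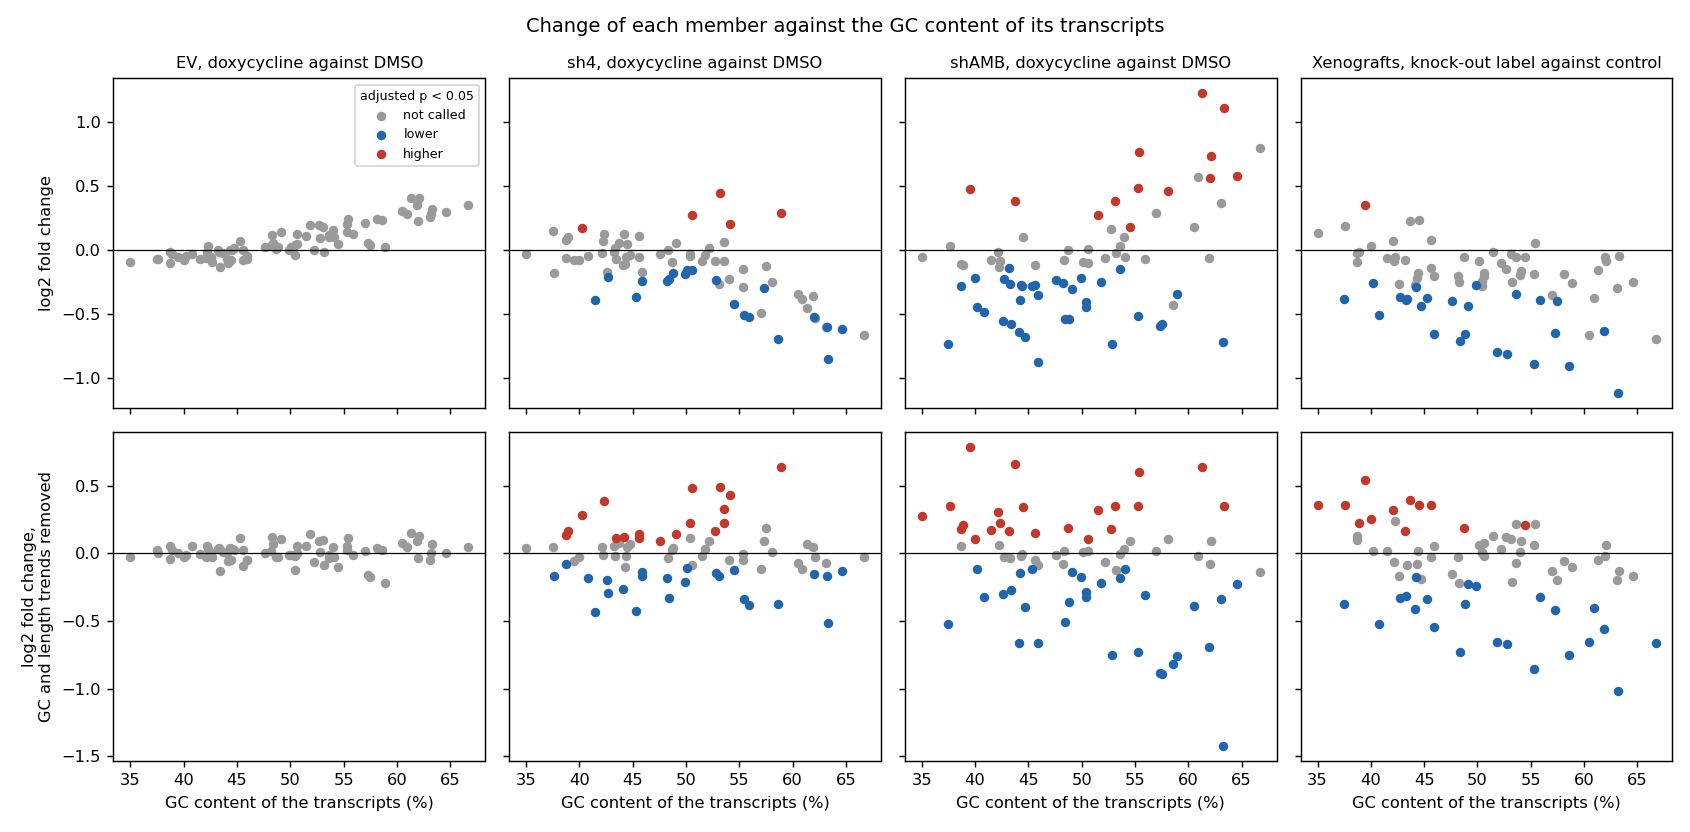
Log2 fold change of each member (vertical axis) against the GC content of its transcripts in percent (horizontal axis) in the 4 comparisons. The upper panels hold the values as tested and the lower panels those after GC and length trends were removed; colors mark adjusted p under 0.05. In the upper panels the slope is positive in EV and shAMB and negative in sh4 and xenografts; in EV and sh4 it is near flat below.

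In sh4, doxycycline lowered 20 of the 77 genes and raised 5. Of all genes 18% were lower and 22.9% higher, against 26% and 6.49% of the members. The falls ran from -0.85 to -0.15 and the median member change was -0.11, beside 0.00 over all genes. Of the 20, 10 are large-subunit and 10 small-subunit genes, and all 5 that rose are large-subunit genes. With GC and length trends removed, 24 were lower and 18 higher (27% and 28.8% of all genes), with a median of -0.02. Of the 20 falls 17 were called in both ways of fitting, as were all 5 rises.

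MRPL4, a large-subunit protein that lines the peptide exit tunnel in bacteria, had the largest fall in sh4, -0.85 ± 0.299 (SE; adjusted p = 0.0327). Its libraries held 20.9, 15.6 and 11.8 CPM with DMSO and 5.90, 7.03 and 14.0 with doxycycline, so the groups overlapped through doxycycline replicate 3. MRPS12, the counterpart of the bacterial decoding-center protein S12, fell by 0.70 ± 0.185 (adjusted p = 0.00673), from 14.99, 12.98 and 10.23 to 6.57, 6.97 and 10.1 CPM. MRPL12, which forms the ribosomal stalk and also binds the mitochondrial RNA polymerase, fell by 0.61 ± 0.212 (adjusted p = 0.0301), and MRPS34 fell by 0.60 ± 0.207 (adjusted p = 0.0285). MRPS34 held 48.5, 39.6 and 34.4 CPM with DMSO and 20.3, 23.1 and 37.3 with doxycycline, so doxycycline replicate 3 again lay in the DMSO range. MRPL10, the stalk's base protein, fell by 0.53 ± 0.0839 (adjusted p = 1.1e-04), from 67.9, 66.7 and 62.2 to 39.98, 45.02 and 51.74 CPM without overlap. The calls on MRPL4, MRPL12 and MRPS34 were each lost when DMSO replicate 1 or 2 or doxycycline replicate 1 or 2 was left out (log2 fold changes between -1.32 and -0.44, highest adjusted p 0.137). They held with doxycycline replicate 3 left out, where 31 members were lower and 9 higher. The share of all genes called in that fit is not given here, so these 2 counts have no background. Of the 20 falls 11 stayed called without any 1 of the 6 libraries, MRPL10, MRPS12, MRPL37, MRPS24, MRPS25 and MRPS27 among them.

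Of the rises in sh4, MRPL17's was largest. MRPL17, a neighbor of the tunnel exit, rose by 0.45 ± 0.0842 (adjusted p = 4.8e-04), from 13.7, 14.0 and 12.2 CPM to 17.6, 18.2 and 18.7. MRPL43 rose by 0.29 ± 0.0623 (adjusted p = 0.00156), from 25.4, 26.8 and 25.8 to 33.8, 29.5 and 32.0 CPM. MRPL40 rose by 0.28, MRPL24 by 0.20 and MRPL32 by 0.17 (adjusted p = 0.00124, 0.0225 and 0.0349). Every doxycycline library lay above every DMSO library for MRPL17, MRPL43 and MRPL40. The calls on MRPL24 and MRPL32 were lost without single libraries in 3 and 4 of the 6 fits that left out 1 library.

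In shAMB, 35 of the 77 genes were lower and 13 higher with doxycycline, 45.5% and 16.9% of the members, beside 28.4% and 37.6% of all genes. The falls ran from -0.88 to -0.14 and the median member change was -0.11, against 0.10 over all genes. Of 26 small-subunit genes 14 were lower and 4 higher, and of 50 large-subunit genes 20 and 9, the remaining lower gene being MRPS36 (-0.28, adjusted p = 0.00231). MRPS36 was at -0.005 and not called once the trends were removed. With GC and length trends removed the counts were 31 lower and 22 higher (34% and 37.9% of all genes) and the median was -0.04. Both ways of fitting called 24 of the falls and 8 of the rises.

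MRPL15, a large-subunit core protein, had the largest fall in shAMB, -0.88 ± 0.0734 (adjusted p = 5.1e-08). Its libraries held 101.8, 115.4 and 108.0 CPM with DMSO and 62.7, 61.2 and 53.2 with doxycycline, far apart. MRPL37 fell by 0.73 ± 0.0494 (adjusted p = 4.3e-09), from 106.1, 108.1 and 110.1 to 66.0, 66.6 and 62.6 CPM. MRPL42 fell by 0.73 ± 0.0757 (adjusted p = 5.4e-07), from 162.5, 174.1 and 170.6 to 110.0, 102.3 and 93.1 CPM. MRPS34 fell by 0.72 ± 0.211 and MRPS6, a small-subunit protein with a bacterial counterpart, by 0.68 ± 0.0706 (adjusted p = 0.00728 and 5.6e-07). None of these 5 groups overlapped, and all 5 calls held with any 1 library left out and with the trends removed.

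Of the 13 genes that rose in shAMB, 6 have a GC content of at least 57%, and 4 of the 5 largest rises were among these. MRPL55 rose by 1.23 ± 0.368 (adjusted p = 0.00839), from 1.80, 1.53 and 2.33 CPM to 3.81, 4.53 and 4.89. MRPL4 rose by 1.11 ± 0.304 (adjusted p = 0.00446), from 7.61, 6.34 and 7.89 CPM to 12.6, 17.0 and 17.7. MRPL2, the counterpart of a core protein next to the peptidyl transferase center, rose by 0.77 ± 0.145 (adjusted p = 2.6e-04), from 23.1, 20.9 and 25.9 to 35.6, 40.7 and 42.6 CPM. MRPL23 rose by 0.73 and MRPL12 by 0.58 (adjusted p = 0.0143 and 0.0261). With trends removed MRPL55, MRPL4 and MRPL2 stayed higher (0.64, 0.35 and 0.60), MRPL23 was no longer called (0.09) and MRPL12 was lower (-0.23, adjusted p = 8.0e-04). The MRPL23 call was also lost without DMSO replicate 2 (lowest value over the libraries left out 0.65), and that of MRPL12 without DMSO replicate 1 or 2 or doxycycline replicate 2 or 3 (lowest value 0.47).

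**Figure D3:**
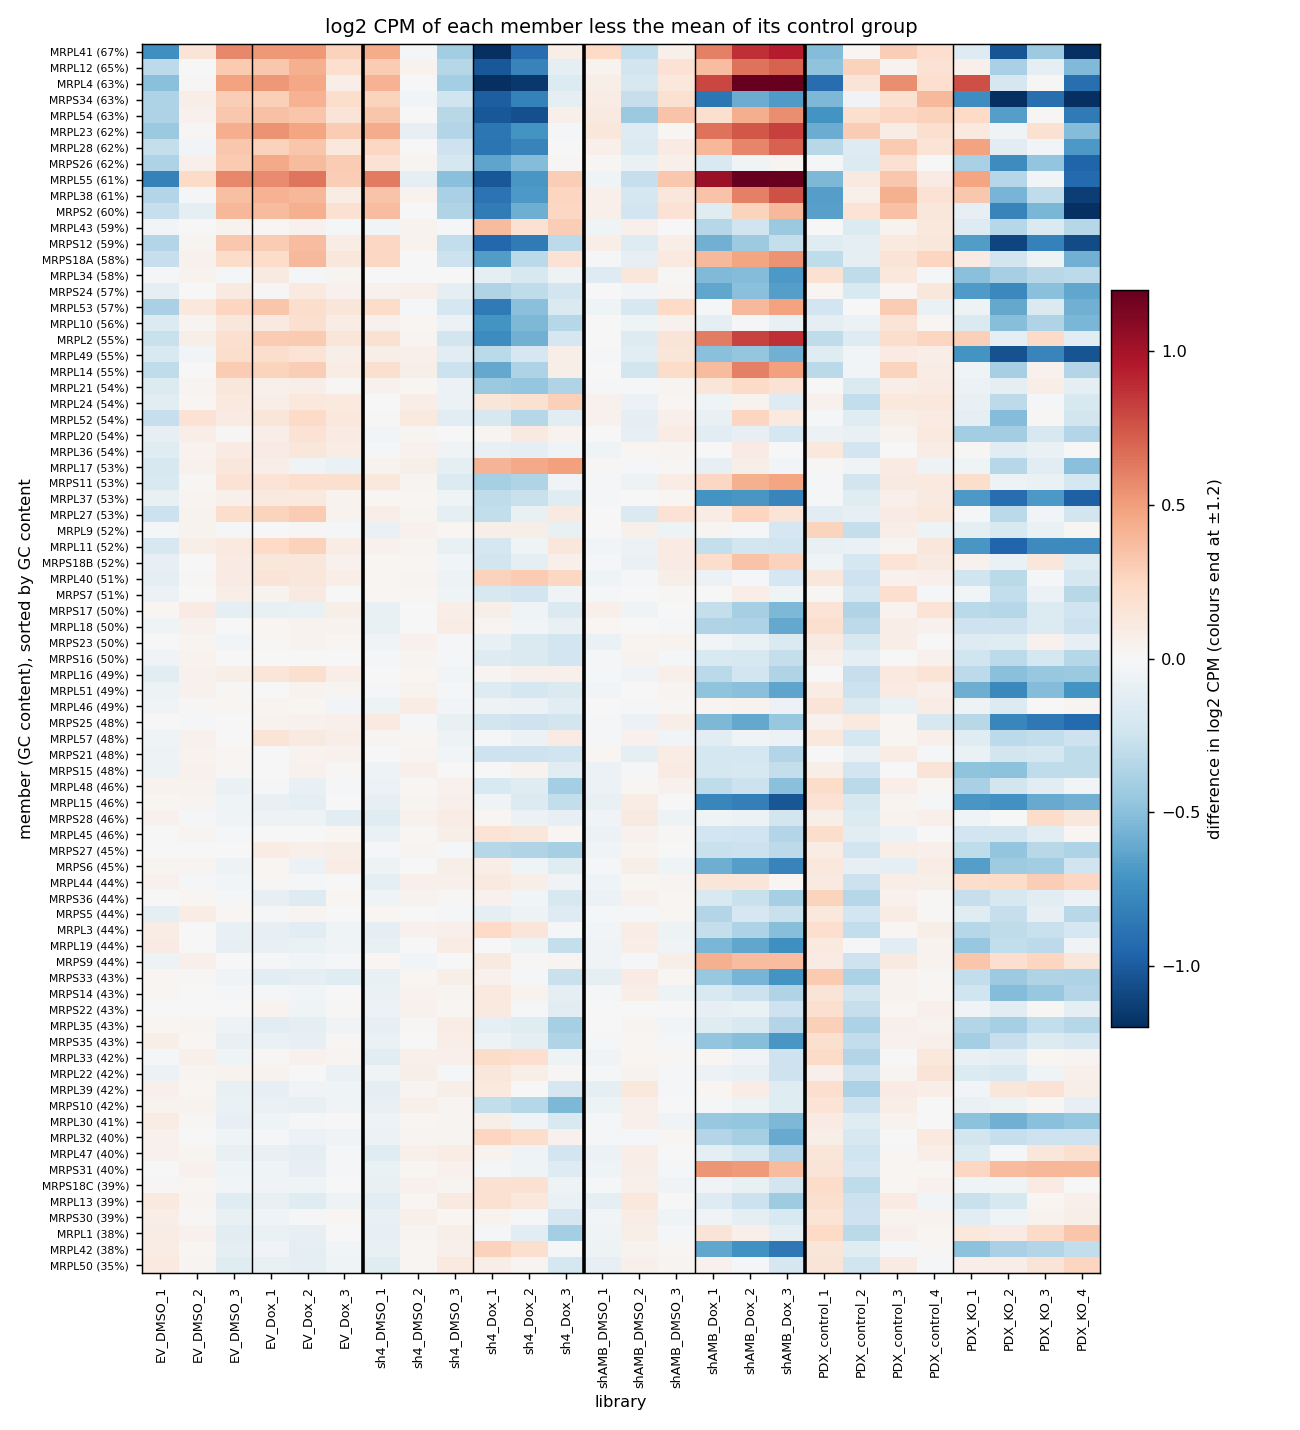
Log2 CPM of the 77 genes (rows, sorted by GC content) in the 26 libraries (columns), less the mean of the control group of the same line or of the xenograft controls. Red is higher and blue lower; thick lines separate lines and xenografts, and thin lines separate their groups. Most of the GC-rich rows at the top are low in sh4 doxycycline replicates 1 and 2, with MRPL43 an exception and MRPS12 and MRPS24 among those also below the DMSO mean in replicate 3, while MRPL15, MRPL37 and MRPL42 stand out as blue in all 3 shAMB doxycycline libraries.

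The hairpin lines differed from EV in their response to doxycycline, by the test of the difference itself. The sh4 effect was below the EV effect for 19 members and above it for 2, 24.7% and 2.6%, beside 14.7% and 17.8% of all genes. With the trends removed it was below for 17 and above for 14, 22.1% and 18.2%, beside 22.5% and 22.5% of all genes. For shAMB it was 31 and 3, 40.3% and 3.9%, beside 21.7% and 23.7%, and with the trends removed 25 and 19, 32.5% and 24.7%, beside 28.8% and 30.3%. Between the hairpins, the sh4 effect was above the shAMB effect for 28 members and below it for 19, 36.4% and 24.7% beside 27.8% and 33.1% of all genes, and with the trends removed for 31 and 21, 40.3% and 27.3% beside 32.1% and 33.7%. These comparisons use the same EV, sh4 and shAMB libraries as those above and are not independent of them. Before induction, sh4 and EV with DMSO differed past the test in 0 members (1.12% of all genes), also by DESeq2. At an unadjusted p under 0.05 there were 26 members, or 33.8%, beside 28% of all genes. Of the 17 GC-rich members 15 were higher in uninduced sh4 than in EV, with a median of 0.52 (0.06 with the trends removed). Mean MRPL4 was 16.1 CPM in sh4 with DMSO and 8.98 with doxycycline, beside 10.2 in EV with DMSO. For MRPS34 these means were 40.8, 26.9 and 28.5 CPM. ShAMB and EV with DMSO differed in 1 member (1.52% of all genes), MRPS25, which was 84.2 ± 4.20 CPM in shAMB and 98.0 ± 0.635 in EV (-0.22).

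The xenografts labelled knock-out had 25 of the 77 genes lower and 1 higher than controls, 32.5% and 1.3% of the members, beside 19.9% and 21.2% of all genes. In total 68 members had a negative value, and the median was -0.21, against 0.02 over all genes. Of 50 large-subunit genes 14 were lower, and of 26 small-subunit genes 11. Without control replicate 2 there were 34 lower and 1 higher, and the share of all genes called in that fit is not given here. With GC and length trends removed, 23 were lower and 12 higher (26.2% and 27% of all genes), with a median of -0.06; 19 falls were called both ways. In these tumors fewer cells of a type and less RNA per cell cannot be told apart. The 8 summed sympathetic neuroblastoma markers were 4690 to 5930 CPM in controls and 7540 to 10600 in the knock-out group. MYCN alone was 2433 to 2887 against 6112 to 8211 CPM, and the other 7 summed to 2181 to 3173 against 1426 to 2657 CPM, with overlap. Of the 8, MYCN and ISL1 rose and 0 fell as tested, and 2 rose and 3 fell (HAND2, DBH and CHGA) with the trends removed. The fibroblast markers were 48.5 to 82.0 against 74.9 to 116 CPM. The part of either in the results, and that of mouse host cells, was not tested.

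MRPS34, a small-subunit protein without a bacterial counterpart whose mutation causes a Leigh-type disease, had the largest fall, -1.11 ± 0.215 (adjusted p = 0.00198). Controls held 14.7, 20.8, 24.3 and 28.1 CPM and the knock-out group 12.7, 8.76, 11.4 and 7.67, without overlap. MRPS12 fell by 0.91 ± 0.149 (adjusted p = 7.6e-04), from 10.4, 10.7, 12.6 and 12.7 to 7.252, 5.400, 6.602 and 5.479 CPM. MRPL49 fell by 0.89 ± 0.108 (adjusted p = 1.1e-04), MRPL37 by 0.81 ± 0.097 (1.1e-04) and MRPL11, the base of the factor-binding stalk, by 0.80 ± 0.0896 (7.9e-05). MRPL11 held 70.3, 70.5, 76.5 and 81.7 CPM in controls and 46.0, 38.5, 43.9 and 43.9 in the knock-out group. All 5 stayed called without any 1 library and with the trends removed. MRPS31, a small-subunit protein without a bacterial counterpart, was the gene that rose, by 0.35 ± 0.0978 (adjusted p = 0.014). Its controls held 32.5, 25.4, 29.6 and 29.5 CPM and the knock-out group 34.7, 38.0, 38.5 and 38.5, again without overlap. It rose in shAMB too, by 0.48 ± 0.0578 (adjusted p = 3.1e-06), from 33.9, 36.9 and 34.4 to 50.7, 50.0 and 45.5 CPM, but not in sh4 (-0.08) or EV (-0.06).

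Across both hairpin lines and the xenografts, 8 members were lower every time and 0 were higher every time. These are 10.4% and 0% of the members, beside 5.03% and 5.93% of the 14670 genes tested in culture and in xenografts. The 8 are MRPL35, MRPL37, MRPL51, MRPS16, MRPS24, MRPS25, MRPS27 and MRPS34. With GC and length trends removed 10 were lower and 2 higher in all 3 (MRPS18C and MRPS28), which is 13% and 2.6% of the members beside 9.17% and 8.58% of these genes. MRPL37, MRPS16, MRPS25, MRPS27 and MRPS34 were lower either way. The 5 with the largest smallest-of-3 fall were MRPS34, MRPS24, MRPL37, MRPS25 and MRPS27. For MRPL37 the falls were 0.24 in sh4, 0.73 in shAMB and 0.81 in xenografts. In sh4 it held 120.8, 120.4 and 114.6 CPM with DMSO and 96.1, 98.5 and 107.5 with doxycycline, and in xenografts 84.6, 77.9, 89.5 and 92.7 against 53.4, 45.7, 53.2 and 43.7. MRPL37 is a large-subunit protein without a bacterial counterpart, at chr1:54200167-54225489 (RefSeq, GRCh38.p14), and 6.79% of its exon bases overlap exons on the other strand.

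MRPS27, a pentatricopeptide repeat protein of the small subunit, lies at chr5:72219403-72320240. It held 184.6, 184.9 and 185.3 CPM in EV with DMSO and 196.1, 193.5 and 194.4 with doxycycline. In sh4 it went from 183.4, 189.2 and 181.4 to 145.7, 144.1 and 140.3 CPM, a fall of 0.37 ± 0.0327 (adjusted p = 2.7e-07), and in shAMB from 185.8, 196.0 and 192.1 to 158.9, 159.6 and 153.4, a fall of 0.28 ± 0.0326 (1.8e-06). The xenograft fall was 0.37 ± 0.0914 (adjusted p = 0.00744), with 175.1, 140.2, 173.2 and 171.1 CPM in controls and 133.0, 118.1, 130.3 and 127.3 in the knock-out group. The 2 culture falls also differed from the EV response (-0.44 and -0.36 relative to EV, adjusted p = 3.7e-06 and 1.4e-05).

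MRPS25, another small-subunit protein without a bacterial counterpart, was 104.6, 95.2 and 91.3 CPM in sh4 with DMSO and 83.3, 81.7 and 83.3 with doxycycline. In shAMB it was 83.6, 80.4 and 88.7 against 57.88, 55.03 and 61.53 CPM, and in xenografts 81.9, 85.9, 80.4 and 69.5 against 62.7, 46.1, 43.6 and 41.6. Its falls were 0.23, 0.54 and 0.71. MRPS25 lies at chr3:15042251-15065315, and exons of NR2C2 on the other strand cover 39.1% of its exon bases. MRPS24, counterpart of the bacterial S3, fell by 0.30, 0.59 and 0.65; in sh4 that turned to 0.09 and was not called once trends were removed. MRPS24 at chr7:43866558-43869517 shares 23.3% of its exon bases with the readthrough gene URGCP-MRPS24 on the same strand. The difference from the EV response was also called for MRPL37, MRPS24, MRPS25 and MRPS34 with both hairpins; for MRPS24 and MRPS34 in sh4 it was not called once trends were removed (0.25 and -0.17).

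**Figure D4:**
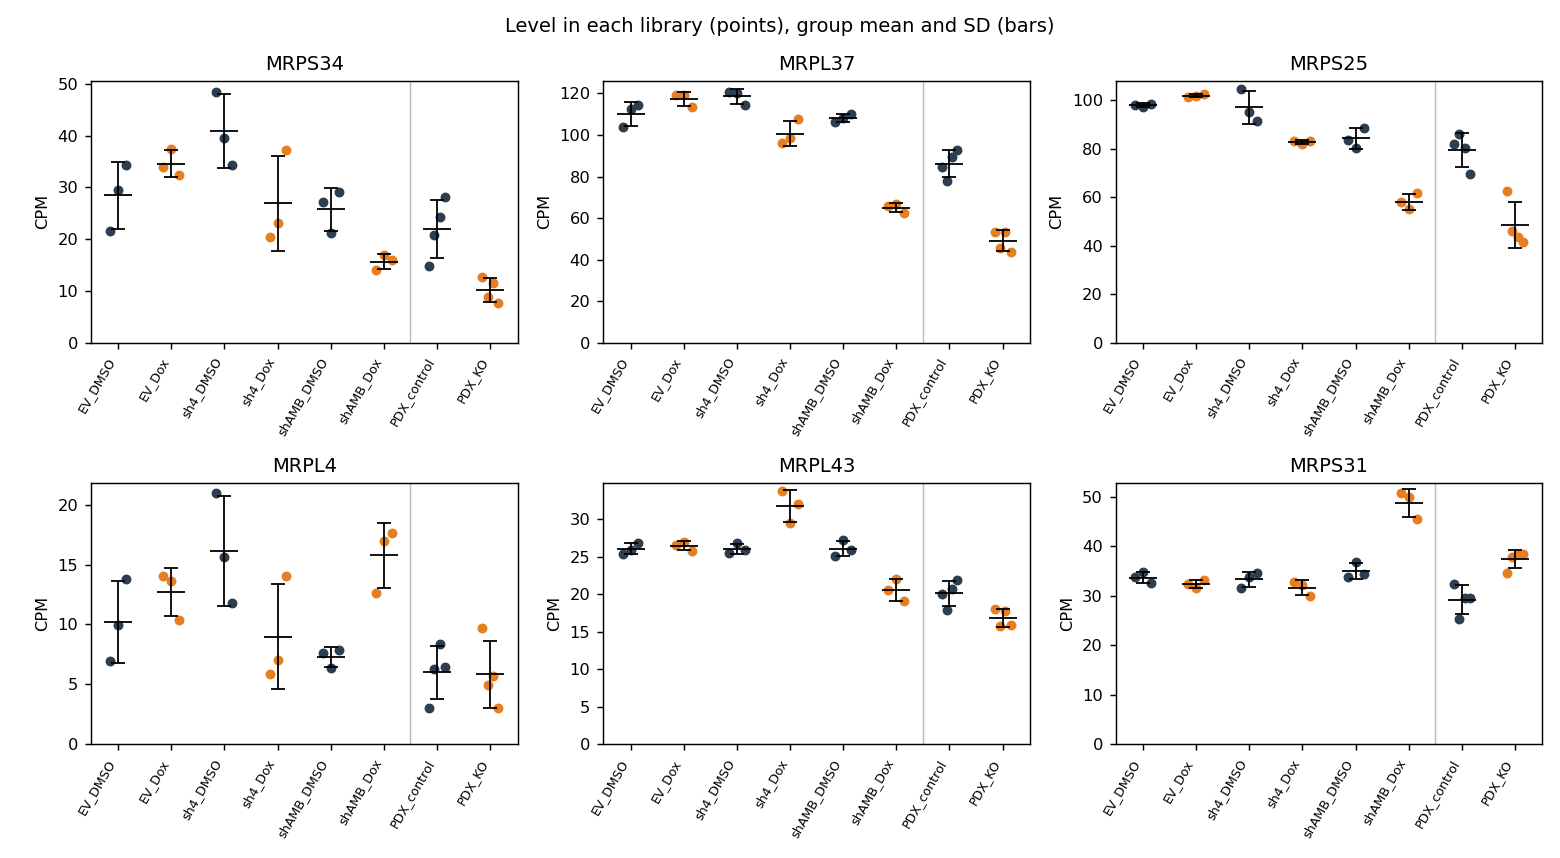
Level in CPM (vertical axis, from 0) of 6 members in each library by group; dark points are DMSO or control food, orange points doxycycline, and bars give the group mean and SD. MRPS34, MRPL37 and MRPS25 have lower means with doxycycline in both hairpin lines and in xenografts, with overlap for MRPS34 in sh4, MRPL4 falls in sh4 and rises in shAMB, MRPL43 does the reverse, and MRPS31 rises in shAMB and xenografts.

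The upstream sequences of MRPS34 and MRPL37 are shown because both genes fell in all 3 comparisons and carried different motifs. The sequences are the 250 bases before the RefSeq start (GRCh38.p14), with matches to the motifs named below in capitals. MRPS34 is at chr16:1771895-1773134, where 31.2% of its exon bases overlap EME2 on the other strand, and the window is chr16:1773135-1773384 on the minus strand. It held 3 matches to the ETS motif, which begin 71, 29 and 19 bases before the start.
MRPS34: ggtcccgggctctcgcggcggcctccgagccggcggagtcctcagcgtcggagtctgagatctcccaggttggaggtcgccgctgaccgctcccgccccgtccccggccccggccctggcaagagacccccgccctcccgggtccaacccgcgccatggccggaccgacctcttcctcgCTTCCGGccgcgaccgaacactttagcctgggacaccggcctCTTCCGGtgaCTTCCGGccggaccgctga
The MRPL37 window is chr1:54199917-54200166 on the plus strand and held an E-box that begins 170 bases before the start.
MRPL37: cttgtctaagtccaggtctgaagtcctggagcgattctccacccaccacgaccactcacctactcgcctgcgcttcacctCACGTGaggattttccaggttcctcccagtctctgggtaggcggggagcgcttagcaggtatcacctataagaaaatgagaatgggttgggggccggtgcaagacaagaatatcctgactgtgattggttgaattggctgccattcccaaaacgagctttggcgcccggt

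Motifs were searched by exact letters on both strands in the 69 members with a promoter entry. The E-box CACGTG, to which MYC-MAX dimers can bind, was in 7 of 69 windows (10.1%) and in 6.49% of all 27305 promoters. The ETS motif CCGGAAG, bound among others by GABP, a regulator of nuclear genes for mitochondrial proteins, was in 22 (31.9%) and in 8.82%. GCATGCGC, a core of the NRF1 site, was in 6 (8.7%) and in 2.81%. Matches overlapped 1 time, and 37 windows held none of the 3 motifs. Of the 8 members lower in all 3 comparisons, 7 had an entry, with the E-box in 1, the ETS motif in 2 and the NRF1 core in 0. Of the 20 members called in none of the 3, 19 had an entry, with these motifs in 3, 6 and 3. A link between motifs and changes was not tested. MRPL10, MRPL13, MRPL15, MRPL2, MRPL21, MRPL23, MRPL35 and MRPS28 had no entry.

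With doxycycline, 7 members moved in opposite directions in sh4 and shAMB, 9.09% of them beside 12.3% of all genes. With the trends removed 14 did so (18.2% beside 18.4%). As tested, MRPL2, MRPL4, MRPL12, MRPL21 and MRPL28 were lower in sh4 and higher in shAMB, and MRPL32 and MRPL43 were higher in sh4 and lower in shAMB. Only 4 of the 7 were also opposite with the trends removed: MRPL2, MRPL4, MRPL32 and MRPL43. Of these 7, MRPL4 had the largest difference between the hairpin effects, -1.96 (adjusted p = 0.00107), followed by MRPL2 at -1.27 (8.4e-05), MRPL12 at -1.19 (0.00322), MRPL28 at -1.09 (0.00428) and MRPL43 at 0.63 (2.3e-05). With GC and length trends removed, the difference remained called for MRPL4 (-0.87), MRPL2 (-0.93) and MRPL43 (1.39), while MRPL12 (0.10) and MRPL28 (-0.07) were not called. The sh4 call on MRPL28 was itself just inside the threshold (adjusted p = 0.0499). An unnamed same-strand gene covers 69.5% of the exon bases of MRPL12. MRPL43 is itself GC-rich at 58.9%. The median of the 17 GC-rich members was -0.50 in sh4 and 0.37 in shAMB, so MRPL43 moved opposite to that median in both lines, while MRPS34, MRPS24 and MRPL34 of the same GC class also fell in shAMB. It lies at chr10:100977820-100987497, where 38.1% of its exon bases overlap SEMA4G and TWNK on the other strand, and held 25.1, 27.2 and 25.9 CPM in shAMB with DMSO against 20.6, 22.1 and 19.1 with doxycycline.

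**Figure D5:**
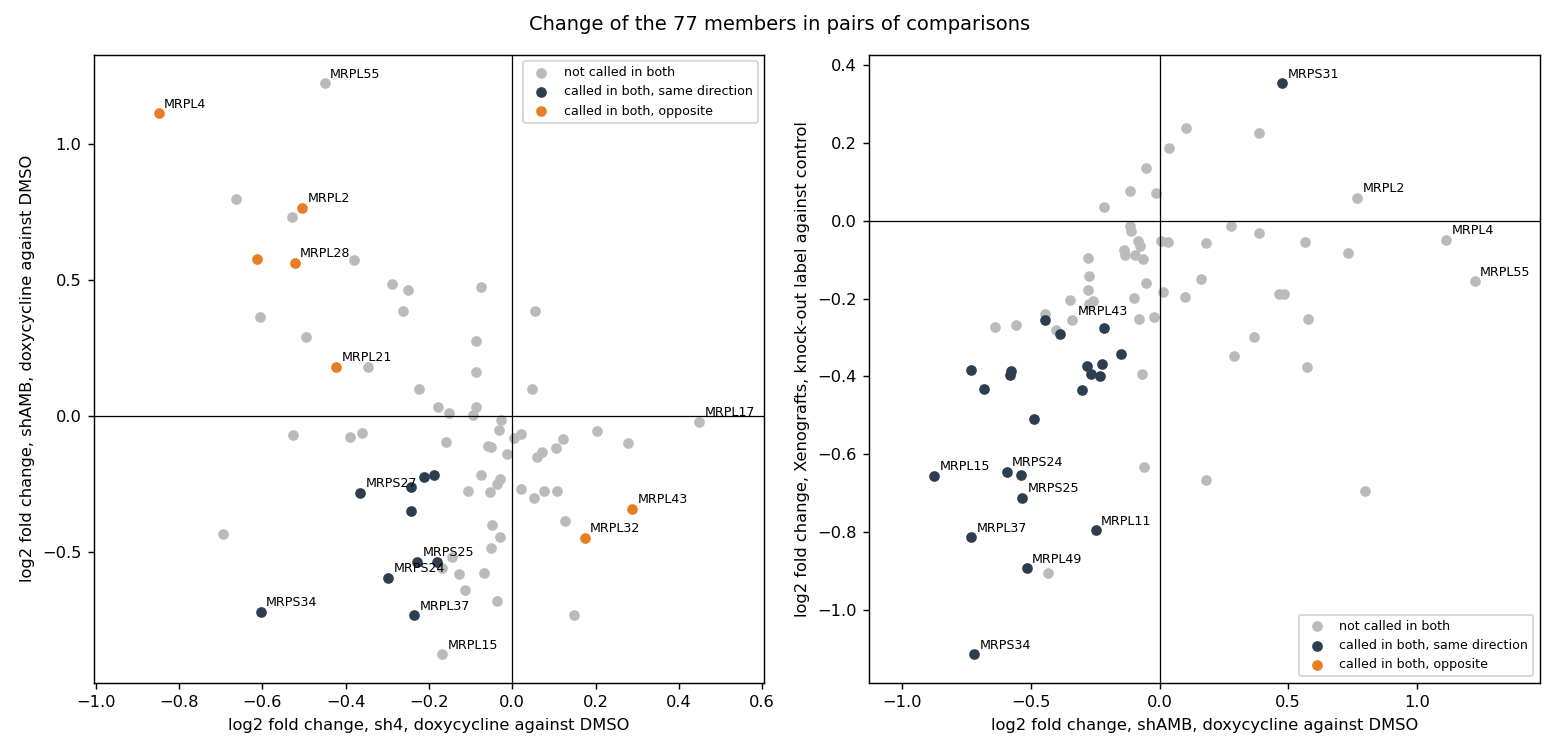
Log2 fold changes of the 77 genes in sh4 (horizontal) against shAMB (vertical), left, and in shAMB against xenografts, right. Dark points were called in both comparisons in the same direction, orange points in opposite directions and gray points in fewer than both. On the left 10 members were lower in both (13%, beside 7.11% of all genes) and 7 moved oppositely; on the right 22 were lower in both and MRPS31 was higher in both.

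For pairs of comparisons that share no library, member values were described by correlation across the 77 genes, without a test. For sh4 and shAMB Pearson r was -0.446 (0.082 over all genes), and -0.005 with the trends removed (0.206). For shAMB and xenografts it was 0.461 (0.743 over all genes), and 0.791 with the trends removed (0.78). For sh4 and xenografts it was 0.259 (0.219) and 0.287 (0.244). The genes of a library share its base composition trend, so these values are not independent of it. The shAMB and xenograft pair may also share a hairpin. In counts, 22 members were lower in both shAMB and xenografts, 62.9% of the 35 falls in shAMB and 88% of the 25 in xenografts. Over the 14670 genes tested in both tables the shares were 58.2% and 78.2%, and 28.6% of members were in this group beside 16.7% of genes. With the trends removed 19 members were lower in both, 24.7% beside 23.2%, and 12 were lower in both hairpin lines, 15.6% beside 11.9% of all genes.

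MRPS18A, B and C are paralogs of the bacterial S18, of which MRPS18A sits in the large subunit. MRPS18B was higher in shAMB by 0.28 ± 0.0684 (adjusted p = 0.00227) and by 0.32 with the trends removed. MRPS18A was higher there by 0.46 (adjusted p = 0.0302), but at 0.11 and not called with the trends removed, and the call was lost without DMSO replicate 1 or 2 or doxycycline replicate 2 or 3 (lowest value 0.41). MRPS18C was at -0.12 and not called in shAMB, and higher at 0.21 with the trends removed (adjusted p = 6.7e-06), and 40.2% of its exon bases overlap ABRAXAS1 on the other strand. None of the 3 passed in EV, sh4 or xenografts as tested. MRPS30, a large-subunit protein, was between -0.11 and -0.02 in the 4 comparisons and not called, and with the trends removed it was lower in sh4 (-0.08) and higher in shAMB (0.18). Pseudogenes with the name of their parent exist for 36 of the 77 genes, and exons of 29 overlap another gene by at least 10%. Among the 48 without such overlap, 12 were lower and 4 higher in sh4 (25% and 8.33%, beside 18% and 22.9% of all genes). In shAMB it was 20 and 8 (41.7% and 16.7%, beside 28.4% and 37.6%) and in xenografts 15 and 1 (31.2% and 2.08%, beside 19.9% and 21.2%). With the trends removed the counts were 16 and 12, 17 and 13, and 12 and 6.

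The list of mitochondrial ribosomal proteins with other names held 5 genes, and may not be complete. In shAMB DAP3, which binds GTP in the small subunit, fell by 0.40 (adjusted p = 3.3e-06) and CHCHD1 by 0.30 (0.00118), while AURKAIP1 rose by 1.07 (0.0177) and GADD45GIP1 by 1.08 (0.0274). In sh4 CHCHD1 fell by 0.33 (adjusted p = 0.00113) and PTCD3 rose by 0.21 (0.0128). In xenografts DAP3 fell by 0.30 and CHCHD1 by 0.37 (adjusted p = 0.0319 and 0.0192). With the trends removed the calls on DAP3, on CHCHD1 in sh4 and on GADD45GIP1 held and the others were lost.

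The other genes of the pathway were read from further lists. With the list of these 5 genes there were 6 lists, which held 89 genes tested in culture. Beside each list's counts stand the shares of all genes given above: 18% lower and 22.9% higher in sh4, 28.4% and 37.6% in shAMB, and 19.9% and 21.2% in xenografts, or 27% and 28.8%, 34% and 37.9%, and 26.2% and 27% with the trends removed. In EV 0 of the 89 were called (lowest adjusted p 0.672), with or without trends. For the 20 tested genes of the mitochondrial stress response, in which mitochondrial damage acts through ATF4, the EV median was 0.20 and 0.02 once trends were removed.

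Of 25 assembly factors of the mitochondrial ribosome, 6 were lower and 1 higher in sh4, 10 and 7 in shAMB, and 8 and 1 in xenografts, and with the trends removed 6 and 4, 15 and 6, and 10 and 2. MALSU1, an assembly factor that keeps the subunits apart, fell by 0.42 in sh4, 0.76 in shAMB and 0.58 in xenografts (adjusted p = 4.7e-04, 6.1e-07 and 0.0134). WBSCR16, also called RCC1L, fell by 0.96 in sh4 and 0.68 in xenografts (4.6e-06 and 0.013). NOA1, a GTPase, fell by 0.26 in sh4, 0.75 in shAMB and 0.61 in xenografts (0.00183, 2.5e-08 and 6.4e-04). DDX28, a helicase, rose by 0.87 in shAMB (4.1e-08). All of these held with the trends removed except NOA1 in sh4 (-0.18, adjusted p = 0.128).

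Of 14 translation factors, 4 were lower and 2 higher in sh4, 8 and 0 in shAMB, and 5 and 0 in xenografts, and with the trends removed 7 and 2, 7 and 2, and 5 and 1. MTFMT, which formylates the initiator, fell by 0.65 in shAMB and 0.52 in xenografts (adjusted p = 7.0e-07 and 0.00441). TSFM, an elongation factor, fell by 0.17 in sh4, 0.46 in shAMB and 0.45 in xenografts (0.0093, 7.2e-07 and 0.00352). The release factor MTRF1 rose by 0.48 in sh4 (1.1e-04) and fell by 0.18 in shAMB (0.0475), where it was not called with the trends removed. TACO1, an activator of COX1 translation, fell by 0.43 in sh4 (2.7e-05).

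Of 17 tested genes for mitochondrial transcription and RNA handling, 3 were lower and 1 higher in sh4, 6 and 5 in shAMB, and 1 and 2 in xenografts, and with the trends removed 10 and 1, 3 and 7, and 4 and 3. SLIRP, which stabilizes mitochondrial messengers, fell by 0.86 in sh4 (adjusted p = 4.5e-07) and by 0.28 in shAMB (0.00604, not called with the trends removed). TFAM, the packaging factor of mitochondrial DNA, fell by 0.24 in sh4 (0.00943). POLRMT, the mitochondrial RNA polymerase, rose by 1.30 in shAMB (0.00412) and by 0.40 with the trends removed.

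Of the stress response genes, 2 were lower and 6 higher in sh4, 10 and 7 in shAMB, and of 19 tested in xenografts 7 and 1, and with the trends removed 4 and 8, 13 and 4, and 6 and 1. PHGDH, the entry enzyme of serine synthesis, was lower, with log2 fold changes of -2.19 in shAMB and -2.31 in xenografts (adjusted p = 6.1e-08 and 2.1e-05). SHMT2, the mitochondrial serine hydroxymethyltransferase, fell by 1.13 in xenografts (0.00921) and by 0.40 in shAMB (0.0412). CHAC1, an ATF4 target that breaks down glutathione, rose by 0.90 in sh4, 1.39 in shAMB and 1.42 in xenografts (0.00547, 1.3e-04 and 0.0145). ASNS, asparagine synthetase and another ATF4 target, rose by 0.56 in sh4 (4.6e-06) and fell by 0.57 in shAMB (1.7e-06), and both calls held with the trends removed. ATF4 itself rose by 0.24 in sh4 and fell by 0.42 in shAMB (5.1e-04 and 9.9e-07), with or without the trends. In xenografts it fell by 0.28 (0.022), a call lost with the trends removed (-0.13, 0.181) and without control replicate 4 or knock-out replicate 2 or 4 (highest adjusted p 0.0709).

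Of 8 regulators of mitochondrial biogenesis, 4 were lower and 1 higher in sh4, 2 and 3 in shAMB, and 1 and 1 in xenografts, and with the trends removed 7 and 1, 4 and 2, and 4 and 2. PPARGC1A, the coactivator PGC-1 alpha, fell by 0.78 in sh4 and rose by 0.31 in shAMB and 0.54 in xenografts (adjusted p = 5.1e-07, 0.00139 and 0.00919). GABPB1, a GABP subunit, fell by 0.50 in shAMB and 0.47 in xenografts (1.9e-05 and 0.00613). GABPA, the ETS-domain subunit of GABP, rose by 0.34 in sh4 and fell by 0.37 in shAMB (0.0013 and 3.2e-04). These calls on PPARGC1A, GABPB1 and GABPA held with the trends removed.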

How the data were processed

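RNA from KELLY cultures (6 groups of 3) and xenografts (2 groups of 4) had been sequenced with a stranded total RNA kit, although the labels give the molecule as polyA RNA. Per the labels, the authors aligned reads with STAR to hg38 and deposited RSEM expected counts per gene, with TPM beside them; versions were not given in the sources used here. In the column names, Neg was taken to mean DMSO and Pos doxycycline, which no label spells out. Deposited TPM of the cultures served for levels only, and that of xenografts was not used here.

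Expected counts were rounded and tested with edgeR 4.0.16 (filterByExpr, TMM, quasi-likelihood F test, R 4.3.3), 18 culture libraries in 1 fit and 8 xenografts in another, Benjamini-Hochberg adjusted over all genes; CPM are TMM-scaled. GC and length trends were fitted per library with mgcv 1.9.3 and removed as offsets. Gene lengths were those deposited with the counts, GC content and overlaps came from GENCODE v44, and coordinates from RefSeq. The fit was also run on counts simulated independently for each gene. These held no GC or length trends, so that run cannot speak for their effect on the calls. Precision follows from 35115915 to 62378060 counts per library and from 3 or 4 libraries, whose separate origin no label states, so that p-values measure the spread between these samples, which may be technical. Replicate numbers were not used as pairs in the main fits, as correlations of same-numbered libraries' deviations ran from -0.897 to 0.477. With 3 or 4 libraries a group, these values cannot exclude paired cultures or shared batches. A marker gene is not reported here and was left out of its list. The members and lists were chosen with earlier results of these data known. Named members are the 5 highest and 3 lowest per length, and the 3 largest and smallest changes in EV. The 5 largest called falls and rises elsewhere, the 5 largest shared and opposite changes and genes with misleading names are named too. Of each list only part of the called genes is named, and larger called changes than some of those given were left out. Other members are named where a count of a pattern lists them, after their values were seen. Normalization, filter, test, block, replicates, fold minimum and single-line fits were varied.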

Additional observations from a re-analysis of the deposited data

Results flagged for a closer look

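Among 40 sets of 4 libraries examined for a library far from its group, of which chance would give about 1 in 20, 3 stood out. The share of counts taken by the 77 genes had a gap of 0.955 of the range in xenograft controls (replicate 2, 0.313% against 0.386% to 0.389%). For MRPS27 the same replicate lay apart (gap 0.885 of the range; 140.2 CPM against 171.1 to 175.1). For MRPS31 it was knock-out replicate 1 (gap 0.858; 34.7 CPM against 38.0 to 38.5).

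The doxycycline effect differed by the test of the difference in 21 members between sh4 and EV, in 34 between shAMB and EV and in 47 between sh4 and shAMB. As sh4 less shAMB, on the log2 scale, the named values were -1.963 for MRPL4, -1.27 for MRPL2, -1.192 for MRPL12, -1.088 for MRPL28 and 0.628 for MRPL43. For the genes lower in both hairpin lines, the effects in sh4 and in shAMB less that in EV were -0.328 and -0.825 for MRPL37 and -0.356 and -0.652 for MRPS24. They were -0.283 and -0.589 for MRPS25, -0.44 and -0.357 for MRPS27, and -0.888 and -1.003 for MRPS34. The part of base composition in these differences was not tested beyond the values without GC and length trends.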

How the results depend on the processing

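With 3 or 4 libraries a group and GC-dependent differences between libraries, the counts of called members depended on the processing. Whether calls on GC-rich members were less certain than calls on other members was not tested. In sh4, 25 members were called as tested, 42 with GC and length trends removed (18 higher), 14 with the replicate block (3 higher, 11 lower), 13 with the line alone (3 higher, 10 lower), 14 with a 1.2-fold minimum (3 higher, 11 lower) and 3 higher without the filter. In shAMB the higher count was 7 with the block and 22 without trends, and in xenografts 0 without the filter, 0 with the block and 12 without trends. The lower count in shAMB, 35 as tested, was 43 with RLE factors, 43 with DESeq2 and 45 with the line alone, with 12, 12 and 14 higher. Of all genes, 4238 of 14905 were lower as tested, and 4853 of 14905, 4775 of 20568 and 5054 of 14514 in those fits. For sh4 less EV the block left 6 (0 higher, 6 lower), the missing filter 1 higher, and removing trends gave 14 higher, against 19 higher for shAMB less EV. Uninduced shAMB against EV gave 0 with RLE factors, 0 without the filter, 0 with a 1.2-fold minimum and 2 without trends. Whether replicate numbers pair the libraries could not be settled, and EV gave 0 members in each of these fits. The cause was not tested.

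Leaving out 1 library at a time gave 0 members in EV, 17 to 40 in sh4 (3 to 9 higher, 13 to 31 lower), 40 to 49 in shAMB (7 to 13 higher, 30 to 36 lower) and 20 to 35 in xenografts (1 higher, 19 to 34 lower). The 17 came without sh4 DMSO replicate 2 and the 40 without sh4 doxycycline replicate 3; the 7 came without shAMB DMSO replicate 2. Differences gave 13 to 38 for sh4 less EV (1 to 6 higher, 12 to 32 lower), 29 to 35 for shAMB less EV (2 to 4 higher, 27 to 32 lower), 39 to 55 for sh4 less shAMB (22 to 33 higher, 15 to 22 lower), 0 for uninduced sh4 and 0 to 1 for uninduced shAMB. Shares of all genes called in these fits are not given here, so whether the members moved more than other genes cannot be read from them.

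With trends removed these log2 values changed sign: the member median of sh4 less shAMB (-0.01), MRPL12 in sh4 less shAMB (0.098) and shAMB (-0.226), MRPL28 in shAMB (-0.074), MRPL32 in xenografts (0.017), MRPS18A in sh4 (0.011), MRPS18B in xenografts (0.129), MRPS18C in EV (0.023), xenografts (0.222) and shAMB (0.212), MRPS24 in sh4 (0.092), MRPS30 in EV (0.055), xenografts (0.097) and shAMB (0.18), MRPS36 in xenografts (0.016) and MTRF1 in shAMB (0.068). Without 1 library, uncalled values near 0 changed sign: MRPS18B (0.036, 0.015, 0.008 and 0.027, lowest -0.087) and MRPS18C (0.027 and 0.001, lowest -0.111) in xenografts, MRPS30 in EV (-0.062 to 0.024), xenografts (-0.108 to 0.008) and sh4 (-0.116 to 0.005), and MRPS36 in sh4 (-0.109 to 0.009).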
